A study of Mus musculus with 9 samples.

Results

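Recombinant mouse Cst6 protein (rmCst6) was added to bone marrow macrophages together with RANKL, and their RNA was compared with that of macrophages given RANKL alone. The comparison rests on 6 of the 9 libraries of the series, 3 with RANKL and 3 with RANKL+CST6, and on 12932 of the 13526 genes deposited, those with a normalized value of at least 10 in 3 or more of the 9 libraries. Neither choice used the difference between the groups. Macrophages from the bone marrow of C57BL/6 mice, 8 weeks of age, were first grown for 3 days with M-CSF (10 ng/ml) in α-MEM containing 10% FBS. Both groups then received RANKL for 48 hours, and only the RANKL+CST6 group received rmCst6. The other 3 libraries, called Control, came from macrophages without RANKL and are given beside the results. No treatment time is given for Control, so time in culture and RANKL cannot be told apart where Control is compared. All 9 libraries come from cultured cells, and neither the labels nor the methods give the culture surface or the doses of RANKL and rmCst6 for them. Whether the replicates of a group came from different cultures or mice is also not stated, and the p-values therefore reflect no more than the spread among these 9 libraries, part or all of which could be technical.

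RANKL binds its receptor RANK on macrophages and, with M-CSF, turns them into osteoclasts, the fused giant cells that dissolve bone. RANK recruits TRAF adaptors, both branches of NF-κB and AP-1 are switched on, calcium oscillations activate NFATc1, and NFATc1 turns on the genes of fusion, acid secretion and collagen breakdown. Cystatins are small secreted or cytosolic proteins that block cysteine proteases of the lysosome. Cst6, also called cystatin M/E, blocks cathepsins such as cathepsin L and also legumain. Because rmCst6 was added as a protein, the Cst6 transcript does not check the labels. The transcript was below the filter, at 3.23, 2.64 and 1.13 with RANKL and at 0.40, 0.37 and 0.41 with RANKL+CST6.

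All levels below are the deposited log2 normalized values, the lowest of which is exactly 0, and each is given in the order of replicates 1, 2 and 3. A difference is the log2 value with RANKL+CST6 minus that with RANKL, followed by its standard error. Such differences understate the change of genes with low values, and a level per cell cannot be read from them: in bulk RNA, fewer cells of a type and less RNA per cell cannot be told apart. On the linear scale, library sums were 2.77e+07 to 2.80e+07 with RANKL and 3.04e+07 to 3.14e+07 with RANKL+CST6 after the authors' normalization, so read depth is not known. Genes were called at an adjusted p under 0.05 in limma.

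Most of the measured transcriptome differed between RANKL+CST6 and RANKL, in both directions and mostly by small amounts. The test called 9407 of 12932 genes (72.7%), 4499 higher (34.8%) and 4908 lower (38.0%) with RANKL+CST6, against which the counts below are to be read. The median difference was -0.02, a value that the scaling of the deposited values may fix near 0, and the 25th and 75th percentiles were -0.58 and 0.51. The median absolute difference was 0.55 and the median standard error 0.09. Of the genes called, 5816 (45.0% of those tested) differed by less than 2-fold. At the upper end, 1653 genes (12.8%) rose 2-fold or more and 669 (5.17%) 4-fold or more. At the lower end, 1938 genes (15.0%) fell 2-fold or more and 825 (6.38%) 4-fold or more. The 3 libraries of each group did not overlap in 9810 genes (75.9%). The difference was narrowly bounded in 1099 genes, which had a 95% interval of the difference inside -0.25 to 0.25, and 87 of these were called.

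**Figure D1:**
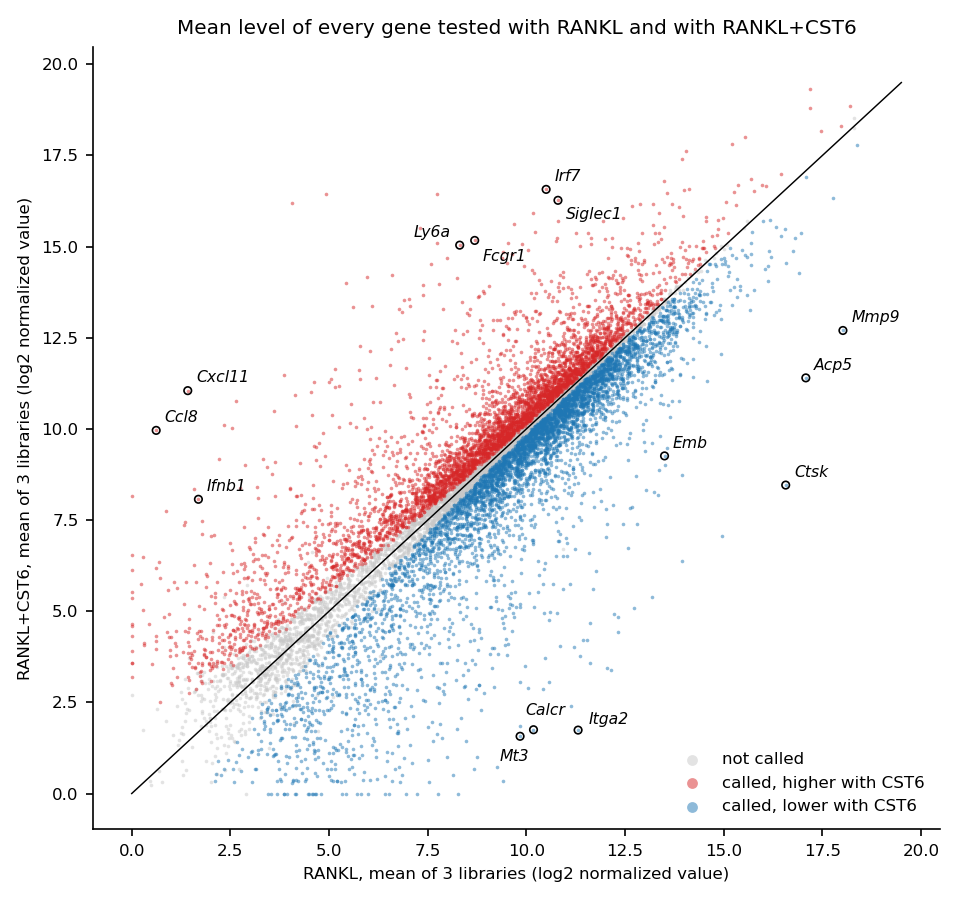
Each point is a gene, with its mean log2 normalized value over 3 RANKL libraries on the horizontal axis and over 3 RANKL+CST6 libraries on the vertical axis, red and blue for genes called higher and lower with RANKL+CST6, gray for genes not called, and a line of equality. Itga2, Calcr and Mt3 lie near the bottom and Cxcl11, Ccl8 and Ifnb1 near the left edge, while Ctsk, at 16.57 against 8.46, lies far below the line among genes that both groups expressed.

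Switching between silent and expressed was rare. A gene counted as on in 1 group only when all 3 libraries of the other group were below a normalized value of 10 and its own mean log2 value was at least 8. Only 19 genes (0.147%) were on with RANKL only and 9 (0.0696%) with RANKL+CST6 only, whereas 8070 genes had mean values of at least 8 in both groups. All 3 Control libraries were below a normalized value of 10 for 12 of the 19 and for 7 of the 9. The genes on with RANKL only had means of 8.13 to 11.31 there.

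Among the genes on with RANKL only were receptors and surface proteins of the osteoclast. Calcr, the calcitonin receptor, through which calcitonin halts resorption, was at 10.39, 10.09 and 10.06 with RANKL and at 2.91, 0.89 and 1.44 with RANKL+CST6, a difference of -8.43 ± 0.44 (SE, adjusted p = 2.75e-09 from limma). All 3 Control libraries listed Calcr at 0, so the RANKL+CST6 libraries lay near Control. Siglec15, a sialic acid receptor that signals through DAP12 in osteoclasts, was at 9.09, 8.43 and 8.52 with RANKL and at 0, 0.95 and 1.03 with RANKL+CST6. Itga2, the α2 subunit of a collagen-binding integrin, was the gene of this class with the largest fall, at 11.28, 11.07 and 11.58 with RANKL and at 2.31, 1.89 and 1.01 with RANKL+CST6. In each of these genes the groups were apart by more than 7 log2 units.

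Other genes of the same class are less tied to the osteoclast. Mt3, the brain-enriched member of the zinc-binding metallothioneins, was at 10.28, 9.50 and 9.73 with RANKL and at 1.59, 1.50 and 1.63 with RANKL+CST6. Steap4, a metalloreductase for iron and copper, went from 10.01, 9.76 and 9.75 to 2.02, 1.52 and 2.05. Serpind1, the thrombin inhibitor heparin cofactor II, was at 8.37, 8.14 and 8.30 with RANKL and was listed at 0 in the 3 RANKL+CST6 libraries, as in the 3 Control libraries. Msln, mesothelin, and Kazn, kazrin, had differences of -9.06 ± 0.38 and -8.52 ± 0.41 (SE), while Ccnb1ip1, a regulator of meiotic crossover, and Pate4 had differences of -7.76 ± 0.40 and -7.62 ± 0.47. No Control library exceeded a log2 value of 3.15 in these 10 genes, and the order of their falls holds only on this scale because their values with RANKL+CST6 were close to 0.

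Genes that both groups expressed, with means of at least 8 in each, can be compared without that limit. Ctsk, cathepsin K, the collagenase of the resorption pit, lies on chromosome 3 from 95499256 to 95509362 of GRCm38 (plus strand) and had the largest fall, from 16.74, 16.45 and 16.52 to 8.61, 8.36 and 8.42, with Control at 6.13, 6.01 and 6.09. Acp5, which encodes the phosphatase TRAP, fell by 5.68 ± 0.12 and Mmp9, a gelatinase, by 5.31 ± 0.13 (SE), and both stayed above Control. The transcription factors Jdp2 and Fosl2, both of the AP-1 family, fell by 5.19 ± 0.10 and 4.15 ± 0.08. Cd9, a tetraspanin of cell fusion, fell by 4.49 ± 0.05 and Sdc1, the heparan sulfate proteoglycan syndecan-1, by 4.51 ± 0.07. Coq8a, needed for the synthesis of coenzyme Q, fell by 4.96 ± 0.15, the lysosomal arylsulfatase gene Arsb by 4.07 ± 0.11 and Fam102a by 5.13 ± 0.10.

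In 6 of these 12 genes the RANKL+CST6 libraries were all below all Control libraries. Ank, which exports ATP and pyrophosphate and so bears on mineral deposition, lies on chromosome 15 from 27466677 to 27594909 (plus strand) and was at 13.24, 12.92 and 12.96 with RANKL, 8.50, 8.29 and 8.16 with RANKL+CST6 and 11.23, 11.22 and 11.30 in Control. Emb, embigin, a glycoprotein that accompanies lactate transporters to the membrane, had nearly the same level in Control (13.68, 13.57 and 13.55) as with RANKL (13.53, 13.49 and 13.47) but 9.51, 9.30 and 8.97 with RANKL+CST6, a difference of -4.24 ± 0.10 (SE, adjusted p = 1.74e-12 from limma). The fall in Emb was thus not a return to the level of the Control libraries. Cd9, Fosl2, Sdc1 and Fam102a were also below Control.

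**Figure D2:**
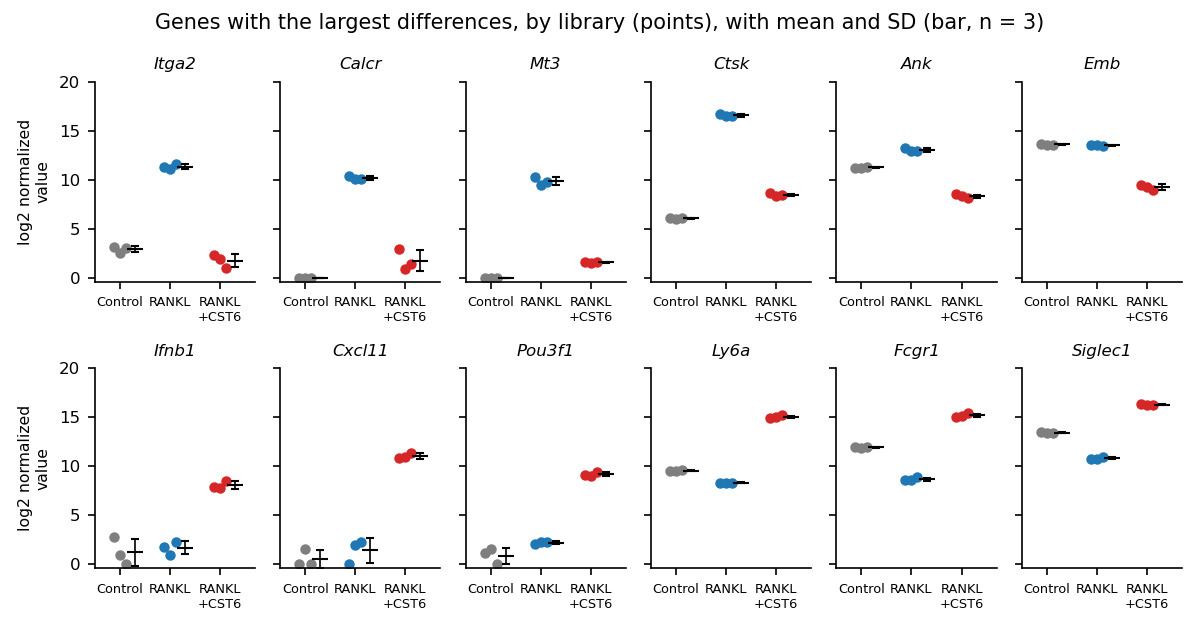
Each panel shows 1 gene, with the log2 normalized value of every library (points) and the mean and SD over 3 libraries (black bar) for Control, RANKL and RANKL+CST6. Itga2, Calcr and Mt3 are high in the RANKL libraries alone, Ank and Emb are lowest with RANKL+CST6, and Ifnb1, Cxcl11 and Pou3f1 are high with RANKL+CST6 alone.

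Among the genes on with RANKL+CST6 only were a cytokine and chemokines of the interferon response. Ifnb1, the type I interferon gene that starts this response, lies on chromosome 4 from 88522025 to 88522774 (minus strand) and was at 1.79, 0.99 and 2.29 with RANKL and at 7.86, 7.81 and 8.54 with RANKL+CST6, a difference of 6.38 ± 0.60 (SE, adjusted p = 8.24e-07 from limma). Control was at 2.74, 1.00 and 0 for Ifnb1, so its RANKL+CST6 libraries stood above all 6 others. Cxcl11 was at 10.81, 10.96 and 11.38 with RANKL+CST6 and at most 2.27 with RANKL, and Ccl8 was at 10.00, 9.78 and 10.10 against at most 0.99. Ccl12, another monocyte chemokine, rose by 8.14 ± 0.19. Pou3f1, a transcription factor known from neural and Schwann cells, was also of this class, at 9.09, 9.01 and 9.39 against 2.10, 2.30 and 2.27. In the same class, the endothelial lipase gene Lipg rose by 6.80 ± 0.50 and the spindle-positioning gene Misp by 5.65 ± 0.32. Gbp10 was listed at 0 in all RANKL and Control libraries and is uncertain, because near-identical family members may share its reads.

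Interferon-stimulated genes also led the rises among genes that both groups expressed. Ly6a, the surface marker Sca-1, lies on chromosome 15 from 74994877 to 74998031 (minus strand) and went from 8.26, 8.33 and 8.33 to 14.95, 14.98 and 15.17, a difference of 6.73 ± 0.06 (SE, adjusted p = 9.04e-16 from limma). Fcgr1, the high-affinity IgG receptor CD64, rose by 6.48 ± 0.09 and Siglec1, the macrophage sialoadhesin CD169, by 5.48 ± 0.05, from 10.72, 10.76 and 10.91 to 16.30, 16.27 and 16.25. The antiviral genes Ifit3, Ifit2, Mx1, Rsad2, Cmpk2 and Ifi211 rose by 5.18 to 5.94, Irf7 by 6.07 ± 0.06, Ms4a6b by 5.18 ± 0.10 and the MHC class I gene H2-Q4, uncertain for the same reason as Gbp10, by 5.43 ± 0.07. All 12 of these genes were also above every Control library. Control itself was above RANKL in Fcgr1 (11.91, 11.87 and 11.95 against 8.62, 8.58 and 8.86) and Siglec1 (13.46, 13.40 and 13.33).

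Promoters of the genes that rose held the binding sequence of the interferon-activated factors more often than those of genes that fell. The interferon-stimulated response element (ISRE) was searched as GAAA, any 2 bases and GAAA on both strands of the 250 bases before each RefSeq start site, along with AP-1 as TGANTCA, NFAT as TGGAAAA and PU.1 as GAGGAAG. The last 2 share the core GGAA, and a base can count for more than 1 motif. Of 669 genes at least 4-fold higher, 510 matched the RefSeq promoter table, with 603 promoters, of which 13.8% held the ISRE core. The share was 1.79% over 840 promoters of 632 matched genes at least 4-fold lower, 2.95% over 13053 promoters of the genes tested and 2.98% over all 32851 promoters. AP-1 was found in 11.4%, 7.74%, 4.93% and 6.75% of the same sets, PU.1 in 15.6%, 10.0%, 10.9% and 10.6%, and NFAT in 6.30%, 4.29%, 4.60% and 5.93%. A match is a description of letters and not a site of binding.

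**Figure D3:**
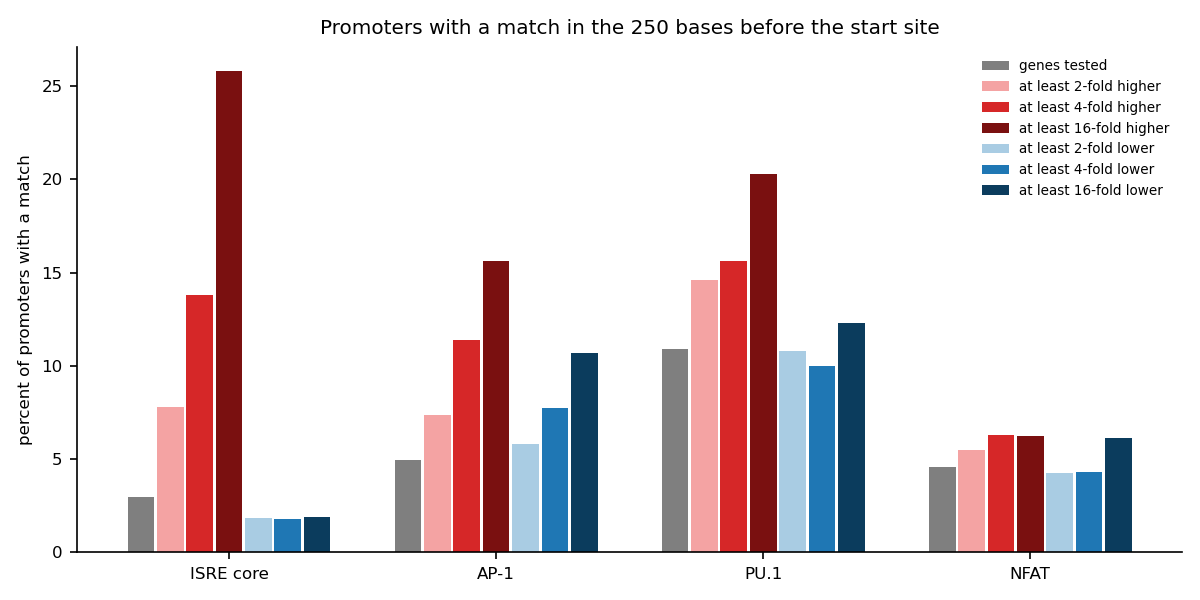
Bars give the percent of promoters with a match to each motif in the 250 bases before the start site, for all genes tested (gray) and for genes at least 2, 4 or 16-fold higher (reds) or lower (blues) with RANKL+CST6. The ISRE core reaches 25.8% at 16-fold higher and stays under 2% in each lower set, whereas the AP-1 share is above that of all genes tested on both sides.

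The windows around the first ISRE match are shown for the 8 named genes with the largest rises among those with a match, to let the element be seen in its context. They come from the RefSeq promoter table on GRCm38.p6, run 5′ to 3′ on the strand of the gene, carry up to 20 bases on each side and have the match in capitals, which reads as TTTC, 2 bases and TTTC where the element lies on the opposite strand.
Tgtp2 (chr11:49064253-49064302, minus strand): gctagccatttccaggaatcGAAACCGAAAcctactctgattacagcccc
Ifit3 (chr19:34583353-34583402, plus strand): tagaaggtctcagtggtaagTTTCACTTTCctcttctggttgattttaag
Rsad2 (chr12:26456543-26456592, minus strand): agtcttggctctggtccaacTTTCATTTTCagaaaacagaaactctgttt
Ifi211 (chr1:173913054-173913103, minus strand): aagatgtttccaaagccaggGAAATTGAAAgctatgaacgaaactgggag
Ifit1 (chr19:34640765-34640814, plus strand): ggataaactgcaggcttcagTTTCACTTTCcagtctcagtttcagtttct
Oas3 (chr5:120777705-120777754, minus strand): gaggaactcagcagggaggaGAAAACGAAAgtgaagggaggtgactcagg
Cxcl10 (chr5:92349073-92349122, minus strand): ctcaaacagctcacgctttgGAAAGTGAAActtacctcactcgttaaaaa
H2-T22 (chr17:36042904-36042953, minus strand): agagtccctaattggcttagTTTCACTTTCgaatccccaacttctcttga
Ifi211 had its match closest to the start site, 27 bases before it, and Cxcl10 the farthest, 203 bases before it. The 8 genes rose by 4.85 (Cxcl10 and H2-T22) to 6.57 (Tgtp2, which shares reads with near-identical family members). Of 20 genes with the largest rises or on with RANKL+CST6 only, 12 matched the promoter table and 3 held the ISRE core.

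For the genes that fell, windows around the first AP-1 or NFAT match are shown, because RANK signaling is known to use both factors. They come from the 6 named genes with the largest falls among those with a match. AP-1 matched 7.74% of promoters at least 4-fold lower, 11.4% of those higher and 4.93% of all tested. NFAT matched 4.29%, 6.30% and 4.60% of the same sets. Whether the falls depend on either motif was not tested. The windows are built in the same way and stop at the start site or at the far end of the stretch searched.
Oscar, NFAT (chr7:3616381-3616407, minus strand): TTTTCCAtttttcttcctcccacctgc
Serpind1, NFAT (chr16:17331328-17331370, plus strand): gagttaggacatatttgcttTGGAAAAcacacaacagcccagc
Tnfrsf9, AP-1 (chr4:150927964-150927998, plus strand): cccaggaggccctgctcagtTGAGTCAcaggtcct
Prdm1, AP-1 (chr10:44458770-44458816, minus strand): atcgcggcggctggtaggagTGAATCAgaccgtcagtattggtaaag
Coq8a, AP-1 (chr1:180193486-180193518, minus strand): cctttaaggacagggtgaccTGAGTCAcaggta
Sphk1, AP-1 (chr11:116531767-116531813, plus strand): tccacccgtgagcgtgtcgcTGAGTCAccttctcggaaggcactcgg
Oscar fell by 8.71 and Tnfrsf9, a costimulatory receptor of the TNF family, fell by 6.25. Prdm1 and Coq8a fell by 5.06 and 4.96, Sphk1 fell by 4.82, and Serpind1 was listed at 0 with RANKL+CST6. Of 22 genes with the largest falls or on with RANKL only, 18 matched the table, 1 with an AP-1 match and 1 with an NFAT match.

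The receptor RANK and its adaptors differed by -1.47 to 0.87, far less than the osteoclast genes above. Tnfrsf11a, which encodes RANK, was at 12.54, 12.37 and 12.44 with RANKL and at 12.49, 12.69 and 12.63 with RANKL+CST6, and these groups overlapped. Its difference of 0.15 ± 0.06 (SE, adjusted p = 0.0380 from limma) lost its call without RANKL replicate 2 (0.11, adjusted p = 0.144) or replicate 3 (0.15, adjusted p = 0.0897) and without RANKL+CST6 replicate 2 (0.11, adjusted p = 0.162) or replicate 3 (0.14, adjusted p = 0.0993). Traf6, the adaptor that carries the RANK signal, fell by 0.78 ± 0.06 (SE), from 11.49, 11.40 and 11.40 to 10.59, 10.63 and 10.74, while Traf2 rose by 0.87 ± 0.07 and Traf1 by 0.39 ± 0.09. Over the 14 genes of this list, 5 were higher and 6 lower, 3 did not pass, and the median was -0.11, beside -0.02 over all genes tested. The 5 higher became 3 without replicate 2 of RANKL or of RANKL+CST6.

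Transcripts of the noncanonical NF-κB branch moved by less than 1 log2 unit. Nfkb2, which encodes p100, was at 12.77, 12.63 and 12.63 with RANKL and at 12.68, 12.73 and 12.70 with RANKL+CST6, a difference of 0.03 with a 95% interval of -0.09 to 0.14 that did not pass the test. Traf3, the adaptor that keeps this branch off, was at 11.16, 11.11 and 11.21 against 11.36, 11.33 and 11.25, a difference of 0.15 ± 0.06 (SE, adjusted p = 0.0321 from limma). That call was lost without RANKL replicate 1 or 2 (0.15 and 0.13, adjusted p = 0.0563 and 0.105) and without RANKL+CST6 replicate 1 or 2 (0.13 and 0.14, adjusted p = 0.103 and 0.0871). Map3k14, which encodes the kinase NIK, rose by 0.72 ± 0.07, and Relb, the partner of p52, fell by 0.64 ± 0.07. Of 8 genes 5 were higher, 2 lower and 1 did not pass, and the 5 became 3 without RANKL replicate 1 or RANKL+CST6 replicate 2. RNA does not show the cleavage of p100 or the amount of TRAF3 protein. In the canonical branch 4 of 11 genes were higher, 5 lower and 2 did not pass. The inhibitor genes split: Nfkbia fell by 0.97 ± 0.08 and Nfkbid by 1.37 ± 0.07, whereas Nfkbie rose by 1.50 ± 0.06.

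Calcium signaling genes moved in both directions, with the larger changes downward. Nfatc1, the master factor of osteoclast formation, went from 14.04, 13.74 and 13.85 to 10.90, 10.70 and 10.69, below Control at 11.48, 11.47 and 11.47. Rcan1, a calcineurin inhibitor that NFAT itself induces, fell by 1.81 ± 0.08 (SE), and Atp2b4, a calcium pump of the plasma membrane, by 5.37 ± 0.21. In contrast, Nfatc2 rose by 1.03 ± 0.07 and Itpr1, the IP3 receptor that releases stored calcium, by 2.02 ± 0.11. Over 28 genes 9 were higher, 14 lower and 5 did not pass. Among 17 ITAM adaptors and kinases 7 were higher and 8 lower: the receptor gene Oscar fell from 11.35, 10.99 and 11.03 to 3.36, 2.23 and 1.64, while its signaling partner Fcer1g, the FcRγ chain, rose by 2.04.

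The transcription factors of osteoclast formation were more often lower than higher. Of 18 genes 11 were lower, 3 higher and 4 not past the test, with a median difference of -0.37, and the 3 became 5 without RANKL replicate 2. Prdm1, the repressor Blimp1 that removes brakes on osteoclast formation, fell by 5.06 and Ppargc1b, a coactivator of mitochondrial genes named after its values were seen, by 3.88. Fos, the AP-1 subunit without which no osteoclasts form, was at 13.51, 13.75 and 13.68 with RANKL and at 13.90, 13.78 and 13.71 with RANKL+CST6. Its difference of 0.15 missed the threshold (adjusted p = 0.0522 from limma) and passed it without RANKL replicate 2 (0.20, adjusted p = 0.0216) or RANKL+CST6 replicate 3 (0.20, adjusted p = 0.0295). Mitf had a difference of 0.01 with a 95% interval of -0.10 to 0.13. Jun rose by 0.77 ± 0.05 (SE), and Nfe2, a factor of megakaryocytes and erythroid cells, by 2.57 ± 0.28.

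Repressors of osteoclast formation mostly rose, with 9 of 14 higher, 1 lower and 4 not passing and a median of 0.53. Bcl6 rose by 2.58 ± 0.07 (SE), from 9.27, 9.46 and 9.60 to 12.02, 11.99 and 12.08, Rbpj, the DNA-binding factor of Notch signaling, by 1.33 ± 0.06 and Irf8 by 0.50 ± 0.05. Id3, an inhibitor of helix-loop-helix factors, was the member that fell, by 2.26 ± 0.11. Fusion genes were lower: Dcstamp went from 12.44, 12.06 and 12.17 to 4.53, 4.91 and 5.31, and Ocstamp from 12.56, 12.18 and 12.24 to 4.79, 5.15 and 4.58, both near the Control libraries (4.88 to 5.83 and 4.26 to 4.67). Of 24 genes of fusion and podosomes 16 were lower and 7 higher, with a median of -1.13. Among those that rose, Cd47, a surface ligand of SIRPα that also takes part in fusion, rose by 2.09 ± 0.06. Of 16 genes of resorption 14 were lower, with a median of -2.36, and Acp2, the lysosomal acid phosphatase, was the member that rose, by 1.57 ± 0.05, joined by 1 more without RANKL replicate 1.

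The proteases that cystatins block rose at the RNA level, apart from cathepsin K and cathepsin F. Of 10 genes of cysteine cathepsins and legumain 8 were higher and 2 lower, with a median difference of 1.45. Ctsl, cathepsin L, lies on chromosome 13 from 64359337 to 64370890 (minus strand) and was at 14.38, 14.66 and 14.62 with RANKL and at 15.90, 15.79 and 15.78 with RANKL+CST6. Lgmn, legumain, lies on chromosome 12 from 102394084 to 102439813 (minus strand) and went from 13.76, 13.90 and 13.91 to 16.01, 16.09 and 16.20. Ctsc, which activates serine proteases of granules, went from 12.44, 12.85 and 12.76 to between 16 and 16.21, a difference of 3.43 ± 0.09 (SE, adjusted p = 3.08e-12 from limma). These groups did not overlap, and all 3 genes ended above Control. Ctsf, cathepsin F, went from 9.21, 9.03 and 9.0 to 5.34, 5.25 and 4.75, with Control at 9.47, 9.66 and 9.56, so its fall was also not a return to Control. Ctsb and Ctss, both abundant in macrophages, rose by 1.62 and 2.50. The values are not per length, so only changes and not levels are compared between these genes.

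**Figure D4:**
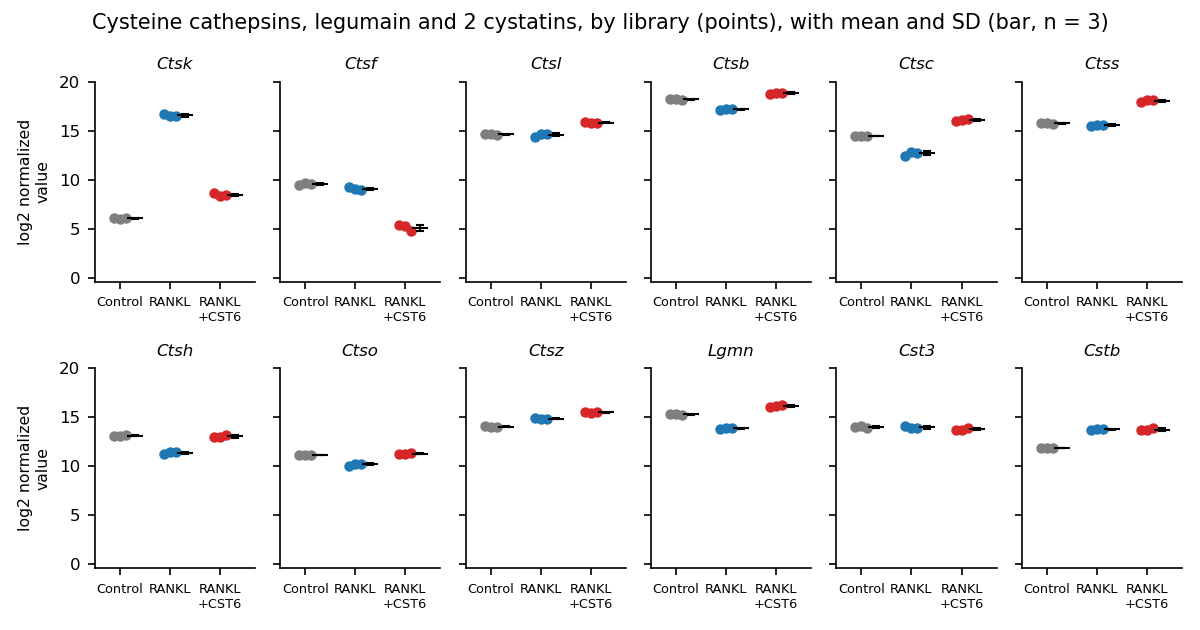
Each panel shows 1 gene, with the log2 normalized value of every library (points) and the mean and SD over 3 libraries (black bar) for Control, RANKL and RANKL+CST6. Ctsk and Ctsf are lower with RANKL+CST6 than with RANKL, the other cathepsins and Lgmn are higher, and the cystatins Cst3 and Cstb overlap between these 2 groups.

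The macrophages' own cystatins did not follow their targets. Cst3, the abundant secreted cystatin C, was at 14.10, 13.87 and 13.91 with RANKL and at 13.73, 13.73 and 13.94 with RANKL+CST6. Its difference of -0.16 (95% interval -0.33 to 0.01, adjusted p = 0.0813 from limma) passed the threshold without RANKL+CST6 replicate 3 (-0.23, adjusted p = 0.0221) and under quantile normalization (-0.34). Cstb, the cytosolic cystatin B, had a difference of -0.04 (95% interval -0.16 to 0.08), and Cst7, cystatin F of leukocyte granules, of 0.07 (95% interval -0.39 to 0.54). Cstb reversed to 0.01 without RANKL+CST6 replicate 1 and Cst7 to -0.09 without RANKL replicate 3. The stefin genes Stfa2l1 and Cstdc4 rose from at most 0.99 to 3.91, 4.61 and 4.40 and from 0 in all 3 libraries to 4.66, 4.13 and 4.19, but they are weakly expressed members of a near-identical family.

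Other protease inhibitors and proteases split in both directions. Slpi, an inhibitor of neutrophil serine proteases, rose from 5.01, 4.13 and 4.59 to 10.43, 10.28 and 10.44, a difference of 5.81 ± 0.27 (SE, adjusted p = 8.52e-10 from limma), and Serpinb9, which blocks granzyme B, rose by 3.08 ± 0.09. Spint2, an inhibitor of membrane serine proteases, fell by 4.33 ± 0.24. Timp1 rose by 2.42 ± 0.13 while Timp2, another inhibitor of metalloproteases, fell by 1.37 ± 0.06. Over 21 genes 10 were higher, 6 lower and 5 did not pass. Among 10 further lysosomal proteases 5 were higher and 5 lower. Ctse and Cpq rose by 1.55 ± 0.06 and 1.56 ± 0.07, Ctsd by 0.70 ± 0.06 and Ctsg, a protease of neutrophil granules named after its values were seen, by 5.44, whereas Napsa fell by 0.81 ± 0.06.

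Metalloproteases moved both ways, with 8 of 23 higher, 9 lower and 6 not passing. When a normalized value of 100 was required in 3 libraries, fewer genes were tested, 4 of the list were higher and 8 lower, and its median went from 0.03 to -0.68. Mmp13, a collagenase, went from 7.48, 7.87 and 8.22 to 11.14, 11.04 and 11.19, a difference of 3.27 ± 0.16 (SE, adjusted p = 1.20e-09 from limma), whereas Mmp14, which activates other metalloproteases at the membrane, fell by 1.41 ± 0.09 and Mmp12, the macrophage elastase, by 1.44 ± 0.09. Adam8 rose by 2.46 ± 0.05, from 13.61, 13.77 and 13.72 to 16.18, 16.16 and 16.13. Adam10 fell by 0.68 ± 0.06. The same sheddase is used in Notch signaling, where 7 of 16 genes were higher, 5 lower and 4 did not pass, or 7 higher and 2 lower with the limit at 100. Dtx4 fell by 2.50 ± 0.06 and Notch4 by 3.03 ± 0.27.

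Signals that osteoclasts send to bone-forming cells were mostly lower. Of 18 such genes 11 were lower, 4 higher and 3 did not pass, with a median of -1.16, or -2.05 where a normalized value of 100 was required. Sphk1, which makes sphingosine-1-phosphate, went from 8.16, 7.54 and 7.48 to 3.32, 2.26 and 3.16, and the ephrin gene Efnb2, which signals into osteoblasts through EphB4, from 8.64, 7.98 and 8.13 to 3.81, 3.97 and 3.20. Lif fell by 3.63 ± 0.17 (SE), Pdgfb, whose product recruits cells of bone vessels, by 2.12 ± 0.07, Bmp2 by 1.97 ± 0.11 and the chemokine gene Ccl9 by 2.41 ± 0.05. The groups did not overlap in any of these genes. Those that rose were C3, the central complement component, by 2.98 ± 0.08, Cxcl16 by 2.42 ± 0.06, Igf1, named after its values were seen, by 0.44, and Slit3, by 2.19 ± 0.40 at levels under 4.

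Guidance molecules fell more often than they rose, with 16 of 25 semaphorins, plexins and ephrins lower, 4 higher and 5 not passing. Plxna4 had a fall from 11.89, 11.53 and 11.68 to 5.68, 5.49 and 5.65, below Control at 7.75, 7.75 and 7.62. Sema7a fell by 2.96 ± 0.18 (SE), Sema6d by 3.32 ± 0.16 and Nrp2, a coreceptor of class 3 semaphorins, by 0.91 ± 0.05. Sema4d, a semaphorin of osteoclasts that inhibits osteoblasts, fell by only 0.35 ± 0.04, from 14.47, 14.40 and 14.45 to 14.09, 14.13 and 14.06. Sema4c rose by 1.99 ± 0.11 and Sema4a by 0.72 ± 0.08.

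Purinergic receptors were among the lists that rose, with 11 of 17 higher, 5 lower and 1 not passing and a median of 0.99. P2rx4, a channel opened by ATP, went from 12.02, 12.12 and 12.12 to 14.09, 14.12 and 14.23, and P2ry6, a receptor for UDP, rose by 1.41 ± 0.05 (SE). P2ry14, a receptor for UDP-glucose known from osteoclast precursors, rose by 0.73 ± 0.09. Entpd1, the ectoenzyme CD39 that removes ATP, fell by 1.08 ± 0.06, beside the fall of Ank given above. When a normalized value of 100 was required in 3 libraries, fewer genes were tested and 7 of the list were higher.

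Eicosanoid enzymes and receptors moved both ways, with 10 of 22 higher, 8 lower and 4 not passing. Hpgd, which breaks down prostaglandins, was at 9.66, 9.55 and 9.71 with RANKL, at 4.78, 4.15 and 4.46 with RANKL+CST6 and at 13.58, 13.57 and 13.63 in Control, so it was below Control in both groups. Ptgs1, cyclooxygenase 1, fell by 2.07 ± 0.10 (SE), and Ptgs2, cyclooxygenase 2, rose by 1.06 ± 0.21. The prostaglandin E2 receptor genes moved apart: Ptger2 rose by 2.63 ± 0.09, from 7.31, 7.26 and 7.10 to 9.87, 9.84 and 9.87, and Ptger3 fell by 3.44 ± 0.34. In the leukotriene pathway Alox5ap rose by 1.64 ± 0.06 and Ltc4s fell by 3.53 ± 0.25. Among 18 potassium and chloride channels 8 were higher, 6 lower and 4 did not pass. Kcnj10, an inward rectifier, fell by 4.21 ± 0.12, from 9.58, 9.56 and 9.61 to 5.62, 5.40 and 5.11, and Kcnn4, the calcium-activated channel, rose by 0.77 ± 0.07.

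Nuclear receptors fell in 17 of 24 cases, with 5 higher, 2 not passing and a median of -0.58. Rarg, a retinoic acid receptor, fell by 1.73 ± 0.08 (SE), and Nr1d2, the clock repressor REV-ERBβ, by 1.00 ± 0.06. Nr1h3, the oxysterol receptor LXRα, went the other way, from 10.40, 10.67 and 10.56 to 12.62, 12.53 and 12.74, with Control at 7.21, 7.58 and 7.32. Esr1, the estrogen receptor through which estrogen limits osteoclasts, rose by 0.84 ± 0.13. In the genes of cholesterol efflux, some of which LXR controls, 6 of 12 were higher and 3 lower. Ch25h, which makes 25-hydroxycholesterol, rose from 2.10, 1.98 and 0 to 7.29, 7.42 and 7.65, Apoe rose by 1.18 ± 0.09 and remained below Control, and the LXR target Abcg1 fell by 0.77 ± 0.14.

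Genes of antioxidant defense were mostly lower, 19 of 25, with 5 higher and a median of -0.67. Nqo1 and Gstp1, targets of the factor Nrf2, fell by 3.13 ± 0.19 and 2.84 ± 0.08 (SE). For Gstp1 the values were 10.33, 10.22 and 10.12 with RANKL and 7.36, 7.39 and 7.40 with RANKL+CST6. Keap1, which marks Nrf2 for degradation, rose by 1.43 ± 0.05, from 10.37, 10.24 and 10.28 to 11.69, 11.69 and 11.80. Hmox1, heme oxygenase 1, rose against the list by 0.88 ± 0.05, as did the peroxiredoxin gene Prdx5, by 1.85 ± 0.08.

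Iron and heme genes moved both ways. Of 19 genes 7 were higher, 9 lower and 3 did not pass. Tfrc, the transferrin receptor that brings iron in, fell from between 14 and 14.09 to 11.86, 11.91 and 11.66, Slc40a1, the exporter ferroportin, fell by 1.80 ± 0.05 (SE), and Ncoa4, the receptor that sends ferritin to the lysosome, fell by 2.81 ± 0.04, from 14.18, 14.24 and 14.26 to 11.41, 11.42 and 11.42. Fth1, the ferritin heavy chain that stores iron, rose by 2.14 ± 0.09 to 19.20, 19.41 and 19.36, and Lcn2, which binds bacterial iron carriers, rose by 3.17 ± 0.18. Of 12 metallothioneins and zinc transporters 8 were lower, 1 was higher and 3 did not pass, with a median of -1.05. Mt1 fell by 2.45 ± 0.09 and Mt2 by 2.49 ± 0.20, both also below Control, and the zinc exporter gene Slc30a1 fell by 1.12 ± 0.06. Slc39a14, an importer of zinc and iron, was the member that rose, by 0.56 ± 0.10, joined by 1 more without RANKL+CST6 replicate 1.

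Genes of fatty acid handling and of energy metabolism in mitochondria were mostly lower. Of 28 genes of fatty acid handling 17 were lower, 6 higher and 5 did not pass. Hadhb and Acadm, enzymes of β-oxidation, fell by 1.66 ± 0.05 and 1.50 ± 0.06 (SE). Plin2, which coats lipid droplets, rose from 13.63, 13.71 and 13.64 to 14.77, 14.79 and 14.88, Dgat2, which makes triglyceride, by 1.63 ± 0.21 and the fatty acid receptor gene Cd36 by 1.15 ± 0.08. In cholesterol synthesis 14 of 23 genes were lower and 1 was higher, Mvk, joined by 2 more without RANKL replicate 2 and by 1 more without RANKL+CST6 replicate 3. All 30 tricarboxylic acid cycle genes but 1 and all 31 oxidative phosphorylation genes but 1 were lower, with medians of -1.54 and -1.13, and none was higher. Idh2 fell by 2.17 ± 0.08 and ended below Control, while Cs, citrate synthase, fell by 1.39 ± 0.04 and remained above it. Glycolysis moved both ways, with 10 of 24 higher and 11 lower: Pfkfb3, which makes an activator of glycolysis, rose by 2.39 ± 0.07 and Aldoc fell by 4.11 ± 0.17.

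Ribosomal protein genes and chaperones were mostly lower, and genes of the integrated stress response were mostly higher. Of 38 cytosolic ribosomal protein genes 37 were lower and none higher, with a median of -0.94, of 30 mitochondrial ribosomal protein genes 20 were lower and 3 higher, and of 35 chaperones 29 were lower and 5 higher. The 21 aminoacyl-tRNA synthetases, which charge transfer RNAs for translation, were mixed, with 6 higher, 9 lower and 6 not passing and a median of -0.12. Hspa5, the chaperone BiP of the endoplasmic reticulum, fell from 15.43, 15.39 and 15.39 to 13.89, 13.92 and 13.94. In the integrated stress response, which ATF4 directs, 15 of 23 genes were higher and 4 lower, 4 did not pass, and the median was 1.19. Ddit3, which encodes CHOP, went from 7.78, 7.96 and 7.72 to 11.56, 11.53 and 11.67, Nupr1 from 7.34, 7.53 and 7.24 to 12.40, 12.43 and 12.45, and Atf4 rose by 0.98 ± 0.05 (SE). Autophagy genes were split, 8 of 24 higher and 13 lower, with Wipi1 falling by 1.35 ± 0.09 and Atg12 rising by 1.24 ± 0.06. Tfeb, a master factor of lysosome genes, fell by 0.91 ± 0.08, while its relative Tfe3 rose by 0.56 ± 0.05.

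Regulators of cell death were more often higher than lower. Among 23 regulators of apoptosis 14 were higher and 3 lower, 6 did not pass, and the median was 0.51. Bcl2l1, which encodes the survival protein Bcl-xL, went from 9.38, 9.39 and 9.30 to 12.07, 12.08 and 12.08, and Cflar, the inhibitor of caspase 8 called c-FLIP, rose by 2.23 ± 0.05 (SE). The BH3-only genes Bmf and Pmaip1 fell by 1.55 ± 0.10 and 1.43 ± 0.08. In the inflammasome list 13 of 18 genes were higher, none was lower and 5 did not pass: Casp4, the sensor of cytosolic LPS, rose by 2.01 ± 0.08, Il18 by 2.57 ± 0.10 and Il1b by 1.60 ± 0.20. Without RANKL+CST6 replicate 3, 1 member of that list was lower. For both lists the share called higher was above the 34.8% of all genes tested.

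Genes of replication and mitosis moved both ways, 16 of 39 higher, 19 lower and 4 not passing. Among cell cycle genes, the D cyclin gene Ccnd1 rose by 4.57 ± 0.09 (SE), from 8.38, 8.68 and 8.60 to 13.16, 13.24 and 12.99, and Ccnd2 by 5.94 ± 0.14, from 5.44, 5.02 and 5.27 to 11.02, 11.33 and 11.21, whereas Mki67, a marker of cycling cells, fell by 1.48 ± 0.19. Mcm5, a helicase subunit of DNA replication, rose by 0.86 ± 0.11, and the inhibitor gene Cdkn1a by 0.68 ± 0.04.

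Genes of chromatin and cytoskeletal regulators moved both ways. Of 29 DNA and histone modifiers 16 were higher, 9 lower and 4 did not pass. Setdb2, a histone methyltransferase that interferon is known to induce, rose from 8.36, 8.59 and 8.61 to 11.12, 11.28 and 11.34, Dnmt1 rose by 0.79 ± 0.04 (SE), and the histone demethylase genes Kdm5b and Kdm6b fell by 1.80 ± 0.09 and 1.32 ± 0.09. Among regulators of the actin cytoskeleton, Rhof, which forms filopodia, fell from 9.85, 9.43 and 9.50 to 5.47, 4.76 and 5.33, and Dock5, the exchange factor for Rac in osteoclasts, fell by 2.67 ± 0.06. Dock2, the corresponding factor of leukocyte migration, rose by 1.09 ± 0.04, and Rac1 itself had a difference of 0.06 with a 95% interval of -0.03 to 0.15. In the TGF-β family 9 of 23 genes were higher and 8 lower: the receptor gene Tgfbr1 fell by 1.72 ± 0.05, from 13.58, 13.53 and 13.57 to 11.85, 11.89 and 11.79, and Smad3 rose by 1.93 ± 0.07.

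The immune genes gave the most one-sided lists among those that rose. All 20 genes of MHC class I and peptide loading, all 18 guanylate-binding and immunity-related GTPases and all 7 Schlafen genes were higher, with medians of 2.76, 3.65 and 2.82, and so were 28 of 31 interferon effectors and 17 of 18 nucleic acid sensors. Near-identical members of such families may share reads, as said for Gbp10 and H2-Q4, so these counts need not stand for separate rises. Mavs, the mitochondrial adaptor of RNA sensing, was the sensor gene that fell, by 0.91 ± 0.06 (SE). MHC class II was mixed, with 4 of 12 genes higher, 6 lower and 2 not passing and a median of -0.26. Ciita, its master regulator, went from 9.52, 9.57 and 9.54 to 3.68, 4.65 and 3.95, while the costimulatory gene Cd40 rose by 3.03 ± 0.11. Of 24 chemokines 17 were higher, of 17 interleukins and cytokines 13, of 22 Toll-like receptors and adaptors 17 and of 18 complement genes 15. Within these lists Itgax, a complement receptor subunit, fell by 4.30 ± 0.13. The chemokine receptor gene Ccr1 fell by 2.80 ± 0.08. Nos2, the inducible nitric oxide synthase, was listed at 0 in Control, at 5.34, 5.12 and 4.65 with RANKL and at 11.26, 11.20 and 11.61 with RANKL+CST6, and Arg1 rose by 4.80 ± 0.19.

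**Figure D5:**
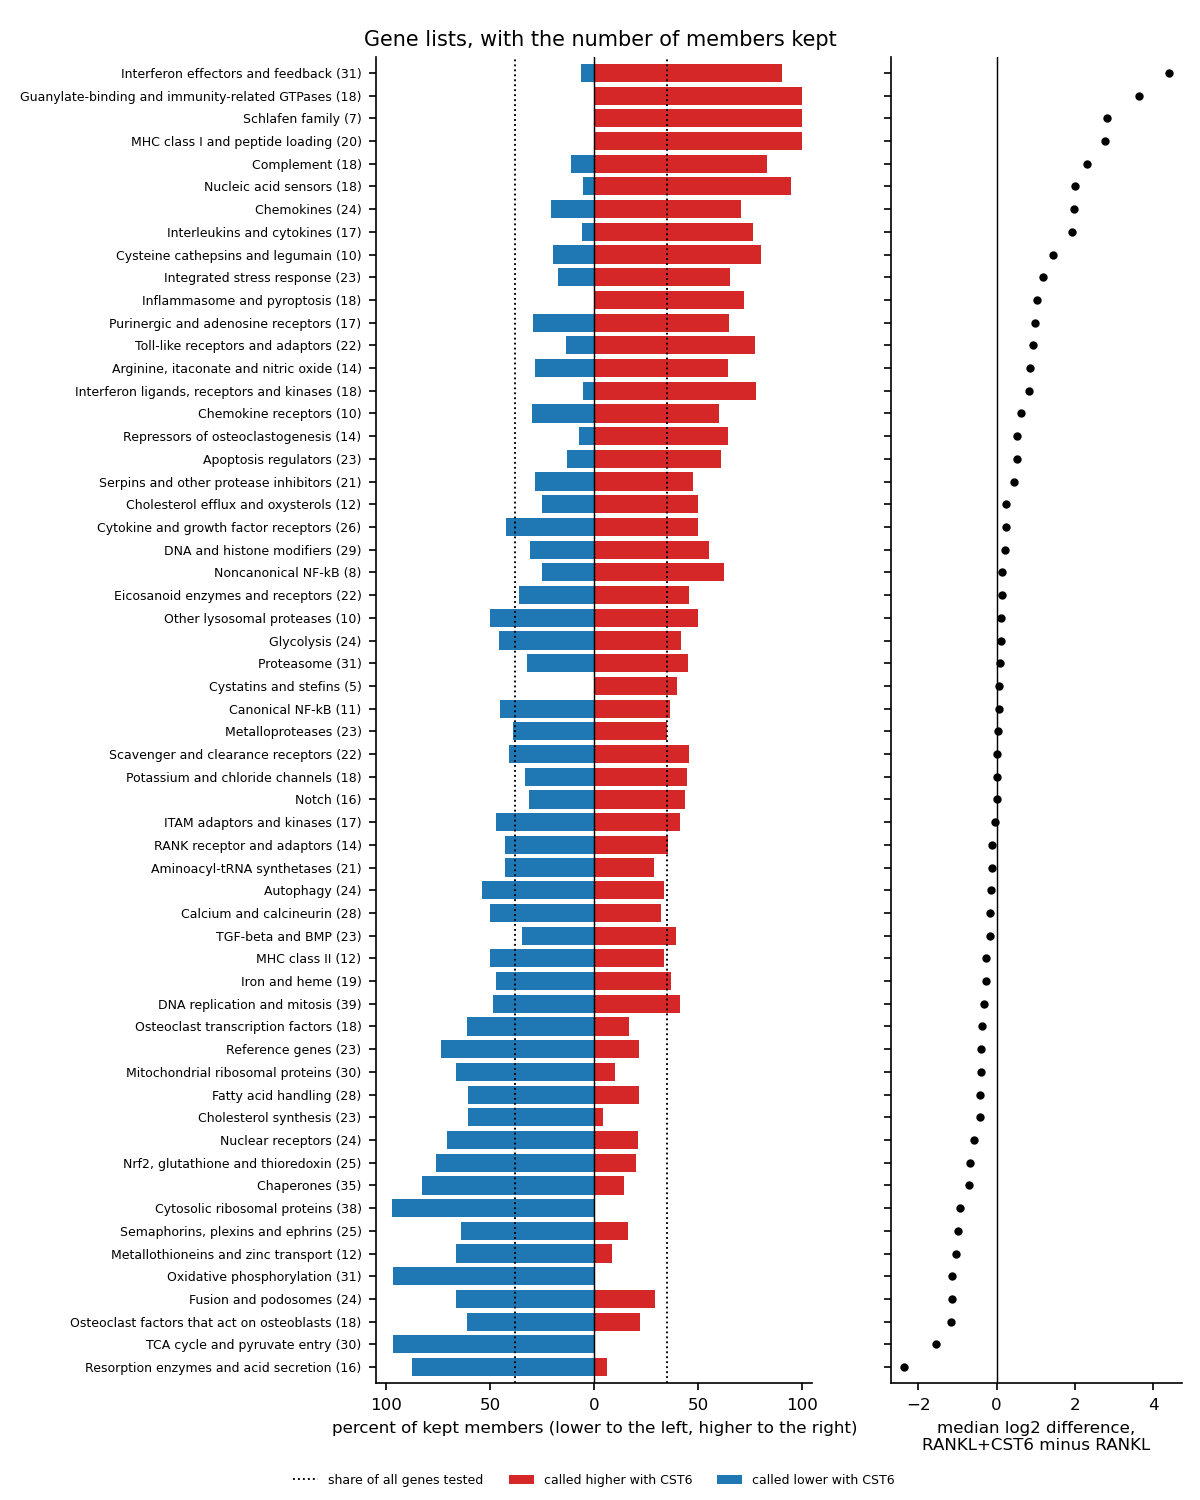
Bars give, for each gene list shown, the percent of its kept members (number in parentheses) called higher (red, to the right) or lower (blue, to the left) with RANKL+CST6, with dotted lines at the shares of all genes tested, 34.8% and 38.0%, and points give the median log2 difference of the list. The lists are ordered by that median, from interferon effectors at 4.40 down to resorption enzymes at -2.36.

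Markers of the labelled cell type were present in every library, and those of some other cell types differed between RANKL and RANKL+CST6. Of 19 macrophage markers 10 were higher, 4 lower and 5 did not pass. Their summed linear level was 580000 to 635000 with RANKL, 862000 to 909000 with RANKL+CST6 and 1220000 to 1420000 in Control. Csf1r, the receptor for M-CSF, fell by 1.65 ± 0.06 (SE). Of 15 neutrophil markers 14 were higher and none lower, with a sum of 7190 to 11500 with RANKL, 55500 to 63800 with RANKL+CST6 and 23700 to 30700 in Control, and no defining marker was at 0 in all 6 libraries. The dendritic cell sum went from 3280 to 3440 up to 34800 to 39800, with Control at 3080 to 3380. The rise was mostly Bst2, an interferon-stimulated gene, while Itgax and 3 others of the 9 dendritic cell markers were lower. Megakaryocyte markers had sums of 2450 to 2740 with RANKL against 6620 to 9000 with RANKL+CST6, with Control at 8300 to 9090. Of the 5 megakaryocyte markers kept, 4 were higher and 1 lower. Mast cell and basophil markers had 71.1 to 134 against 394 to 437, with Control at 80.7 to 119. These sums hold 4 of 9 markers, and of the 3 kept 2 were higher and 1 lower. Endothelial markers had 2000 to 2410 against 3550 to 4140, with Control at 395 to 510. Of the 5 endothelial markers kept, 3 were higher and 1 lower. Stromal markers had 3550 to 4030 against 4850 to 7640, with Control at 6410 to 10300. B-cell markers had 120 to 139 against 195 to 235, with Control far higher at 3730 to 4320. The B-cell sums rest on only 3 of 10 markers, of which 2 were higher. Of 12 stromal markers 8 were higher, or 5 without RANKL+CST6 replicate 1 or 3. T- and NK-cell markers had sums of 283 to 417 against 258 to 327, with Control at 155 to 191. Only 5 of 12 such markers are in these sums, and their members moved apart. Of the 3 kept, 1 was higher and 1 lower, with differences of -4.13 to 2.65. The 2 erythroid markers in the table, Epor and Hba-a1, summed to 2.71 to 7.31 against 9.30 to 15.1, with Control at 40.1 to 56.5. Of these Epor alone passed the filter on low values, with a difference of 0.15 that did not pass the test. The part of other cells in the changes above was not tested. Slpi, Lcn2, Ctsc and Ctsg are genes that neutrophils or their precursors also express.

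Genes used as references in other assays were not all still. Of 23 reference genes 17 were lower, 5 higher and 1 did not pass, with a median of -0.40. Gapdh fell by 0.32 ± 0.05 (SE), from 15.81, 15.67 and 15.66 to 15.43, 15.41 and 15.34, and Hprt rose by 0.62 ± 0.05. Actb had a difference of -0.18 ± 0.06 (adjusted p = 0.0127 from limma) that lost its call without RANKL+CST6 replicate 1 (-0.15, adjusted p = 0.0516). Tbp was at 8.89, 9.22 and 9.10 against 9.17, 9.32 and 9.38, a difference of 0.22 that did not pass (adjusted p = 0.0738 from limma) but did without RANKL replicate 2 (0.30, adjusted p = 0.0340) or RANKL+CST6 replicate 1 (0.28, adjusted p = 0.0486). B2m, a reference gene that interferon induces, rose by 3.46 ± 0.37, and its replicates were unusually far apart, at 13.32, 14.79 and 13.67 with RANKL and 17.63, 17.82 and 16.72 with RANKL+CST6.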

How the data were processed

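Bulk RNA of 9 libraries was analysed, 3 each of Control, RANKL and RANKL+CST6, made with stranded poly(A) RNA preparation. The authors deposited 1 table of log2 normalized values for 13526 genes. Per the labels' processing notes, Salmon 1.2.1, DESeq2 and the build GRCm38.p6 were used, but which step each tool served, and how the values were scaled, was not given in the sources used here. Values start at exactly 0, so a pseudocount of 1 appears to be included. Low values came in whole steps in only 38.0 to 54.5% of cases (tolerance 0.02, values under 12), so counts were not recovered, no count test was run and depth is unknown. The precision that depth gives is therefore not known, and errors are those between 3 libraries.

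Genes with a normalized value of at least 10 in 3 or more libraries were kept. A group-means model over all 9 libraries was fitted with limma 3.58.1 in R 4.3.3 (eBayes with trend, two-sided), and p-values were adjusted by Benjamini-Hochberg over 12932 genes. Standard errors and 95% intervals come from that fit. On simulated data with 200 changed genes of 12932 it recovered 19.2%, 60.4%, 80.8% and 94.8% of log2 changes of 0.25, 0.5, 1 and 2, and called 0.0346% of unchanged genes. In the real data 9407 genes were called, so the adjusted threshold was less strict there than in the simulation. Neither the recovery rates nor the rate for unchanged genes therefore carries over to the real data. Positions came from GENCODE M21 (GRCm38), in which 13516 IDs matched, and promoters from RefSeq. Named genes were the 12 largest rises and falls on in both groups and up to 10 of each class on in 1 group only. These were all called and without overlap of the groups. Each of 69 lists added its marked members, up to 4 with the smallest adjusted p and up to 3 that moved against the majority. Of these list members, only those against the majority had to be called, and none had to be without overlap. The members and lists were chosen with earlier results of these data known. Alternatives changed the filter, pseudocount, normalization, trend, robustness, weights, libraries fitted, block, threshold and the fold limit of the motif sets. Some results are not reported here.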

Additional observations from a re-analysis of the deposited data

How the results depend on the processing

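The counts of genes called in each direction, at any size or at 2-fold and more, stayed within 1.5 times under every alternative run. Leaving out 1 library at a time gave 8948 to 9382 genes called, 4250 to 4483 higher and 4698 to 4899 lower, with 1610 to 1676 at least 2-fold higher and 1885 to 1964 at least 2-fold lower. The same gave 657 to 692 genes at least 4-fold higher, 808 to 859 at least 4-fold lower, 7 to 11 on with RANKL+CST6 only and 18 to 24 on with RANKL only. With a filter at 100, 523 genes were at least 4-fold lower, because fewer genes were tested. That filter also left 3 chaperones higher (5 before). The 5 genes higher in the RANK list and in the noncanonical NF-κB list became 3 each under quantile normalization, without a mean-variance trend and at an adjusted p under 0.01, and the last setting left 4 stromal markers higher of the 8. Quantile normalization moved the median of the reference genes from -0.40 to -0.72, and 3 genes of cholesterol synthesis were then higher, against 2 under median centring and 1 without either. Same-numbered libraries did not deviate together (r of -0.08 to 0.07, and 4 of 9 libraries were closest to their own number), and a replicate block called 9358 genes. With the block, Tnfrsf11a was no longer called (0.15, adjusted p = 0.0558 from limma). It also lost its call in limma under quantile normalization (0.07, adjusted p = 0.262) and without a trend (0.15, adjusted p = 0.086). The same held with only the 6 libraries compared (0.15, adjusted p = 0.0542 from limma). Traf3 lost its call in limma under quantile normalization (0.12, adjusted p = 0.0821) and without a trend (0.15, adjusted p = 0.0577). Calls higher made up 47.8% of all calls, and 50.1% under quantile normalization or median centring, both of which moved the median of all genes to 0.02. The ISRE share of genes higher was 7.82% at 2-fold and 25.8% at 16-fold, and the AP-1 share 7.38% and 15.6%. At 16-fold the PU.1 share was 20.3% for genes higher and 12.3% for genes lower, the NFAT share of genes lower was 6.13% and the AP-1 share of genes lower 10.7%, or 5.82% at 2-fold. Under quantile normalization Mitf, Nfkb2 and Rac1 reversed to -0.035, -0.074 and -0.01. Without 1 library at a time, Mitf ran from -0.022 (RANKL+CST6 replicate 3 left out) to 0.033, Cst7 from -0.09 (RANKL replicate 3) to 0.159 and Cstb from -0.106 to 0.006 (RANKL+CST6 replicate 1). None of these 5 was called, and the causes were not tested. Read depth is unknown, and only 3 libraries a group limit what small differences can show.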
